A study of Mus musculus with 36 samples.

Results

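The comparison described here sets liver expression in mice fed a high-fat diet with açai, a palm berry, against that in mice fed the same high-fat diet without a berry. Its members are the 12 arrays of these 2 diets, 6 livers each, out of 36 arrays in the series. They were chosen by the diet in the array titles, and all 17907 probes with a detection p below 0.05 on at least 6 of the 36 arrays were tested. All mice were males labelled as C57BL/6J, while the series design names the substrain C57BL/6JBomTac. Age was given as 20 weeks, and each diet had lasted 13 weeks. Fat gave 45% of the energy in the high-fat diet, and the açai diet was that diet with 20% of its weight as freeze-dried berry. Livers from 6 mice on a low-fat diet (fat at 10% of energy), and from 6 mice each on high-fat diets with lingonberry, blackcurrant or bilberry at the same share, were used for reference. Each liver was hybridised to 1 array, and each of 6 chips held 1 array of every diet. Every diet kept the same position on all chips, so the effect of a diet cannot be told apart from that of its position.

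In a liver that stores fat, the nuclear receptor PPARγ and the proteins of the CIDE and perilipin families are made at higher levels, and these proteins coat lipid droplets and let them fuse and grow. When sterols in the endoplasmic reticulum run low, the transcription factor SREBP2 is released and switches on the enzymes of cholesterol synthesis, while its relative SREBP1c serves fatty acid synthesis. Hepatocytes turn cholesterol into bile acids, where the sterol 12α-hydroxylase Cyp8b1 directs synthesis towards cholic acid and, in mice, Cyp2c70 makes the water-soluble muricholic acids.

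Feeding açai was accompanied by few changes that passed correction over the whole array. With limma and Benjamini-Hochberg adjustment, 22 probes were called at an adjusted p below 0.05, which is 0.123% of those tested. Of these, 20 were higher on açai (0.112%) and 2 were lower (0.0112%). The called probes held 20 with a gene symbol, which named 19 genes, and 2 without a symbol. At an unadjusted p below 0.05, 731 probes were higher (4.08%) and 688 lower (3.84%). The genes with the largest rises were Cidea, Osbpl3, Gal3st1, Limk1 and Cyp4a12a, and the genes that fell were Cyp2c70 and Hamp. Each of the 22 probes had the same direction on all 6 chips, and for 13 of them the 6 açai and 6 high-fat livers did not overlap, against 0.413% of all probes tested (0.279% with açai above). The 22 were picked by their p on these same arrays, so both traits follow largely from the choice and are no further support. Açai replicate 2 held the highest açai value for 14 of the 20 higher probes, and high-fat replicates 1, 4 and 6 held the lowest high-fat value for 6, 5 and 7 of them. What these livers share was not tested.

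The count of called probes depended on how the chips were treated. Dropping the chip from the fit left 8 calls, 6 higher and 2 lower, and with the 12 arrays of the 2 diets alone 2 were called, those of Cidea and Limk1. Leaving out high-fat replicate 1 left 5 calls, and high-fat replicate 6 left 10. Leaving out high-fat replicate 2 gave 52. Without açai replicate 1, 2 or 4 the calls were 12, 6 and 13, and without the whole of chip 1, 4, 5 or 6 they were 2, 5, 13 and 8. Cidea and Limk1 were called in every alternative fit that tested them, 30 fits for Cidea and 31 for Limk1. Of the 19 called genes, the 14 largest rises and both falls were followed through the alternative fits, and all 16 kept their sign in every fit. These genes were picked by size from arrays that the alternative fits mostly reuse, so a kept sign was nearly fixed in advance. Of the 16, 2 stayed called in every fit. Cyp4a12a and Prss8 were called in 10 of 31 fits, Cyp8b1 in 13, Rdh11 and Tceal8 in 16, Cyp2c70 in 24 and Pparg in 29. Entpd5, Gas2l3 and Rbm47 were not followed there.

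**Figure D1:**
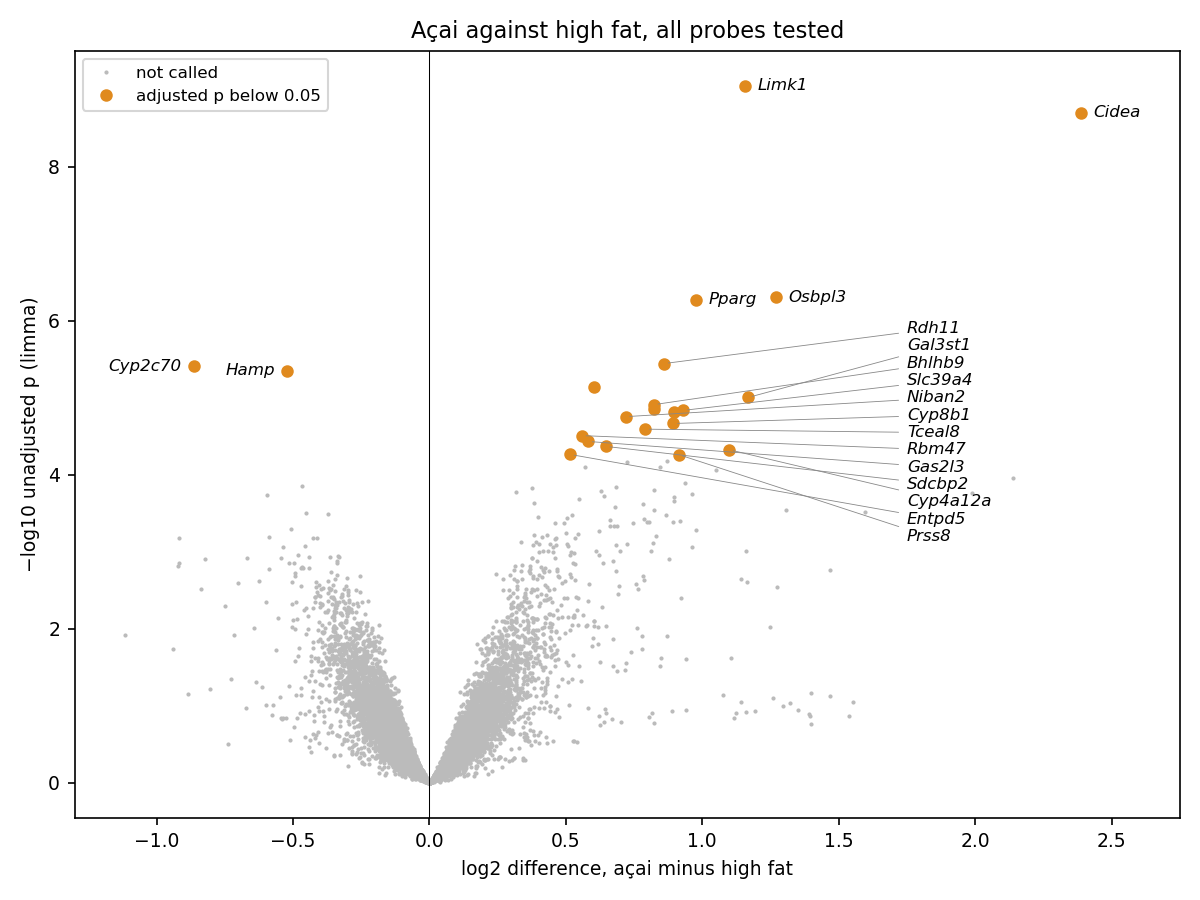
Log2 difference of açai minus high fat (horizontal axis) against −log10 of the unadjusted p from limma (vertical axis) for all 17907 probes tested. The 22 called probes are orange, and Cidea and Limk1 stand farthest up, with 20 called probes on the right and 2 on the left.

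The arrays of the 2 diets were alike in quality, with 14649 to 15670 probes detected per array (32.4% to 34.6%) and a median correlation with the other arrays of 0.981 to 0.985. The 15 hepatocyte markers, all tested, averaged between 11.77 and 12.11 on the log2 scale in the açai livers and between 11.78 and 12.03 in the high-fat livers. Açai replicates 4 and 6 stood apart in pancreatic acinar markers, of which 17 of 24 were tested. Their means were 7.76 and 9.20, against 5.13 to 5.18 in the other açai livers and 5.18 to 5.40 in the high-fat livers, and all 17 markers were detected in both. Single arrays of low fat, blackcurrant, bilberry and lingonberry were also high, at 7.48, 7.63, 8.27 and 9.64. Açai replicate 4 also stood apart in the 6 tested of 11 markers of MHC class II antigen presentation, with a mean of 10.03 against 7.66 to 7.95 in the other açai livers and 7.16 to 8.89 on high fat. Without both of these arrays 6 probes were called, all higher and all among the 22. With the pancreatic mean as a covariate 27 were called, 21 of them among the 22. In whole liver, a change in the number of cells of a type and a change in RNA per cell cannot be told apart.

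**Figure D2:**
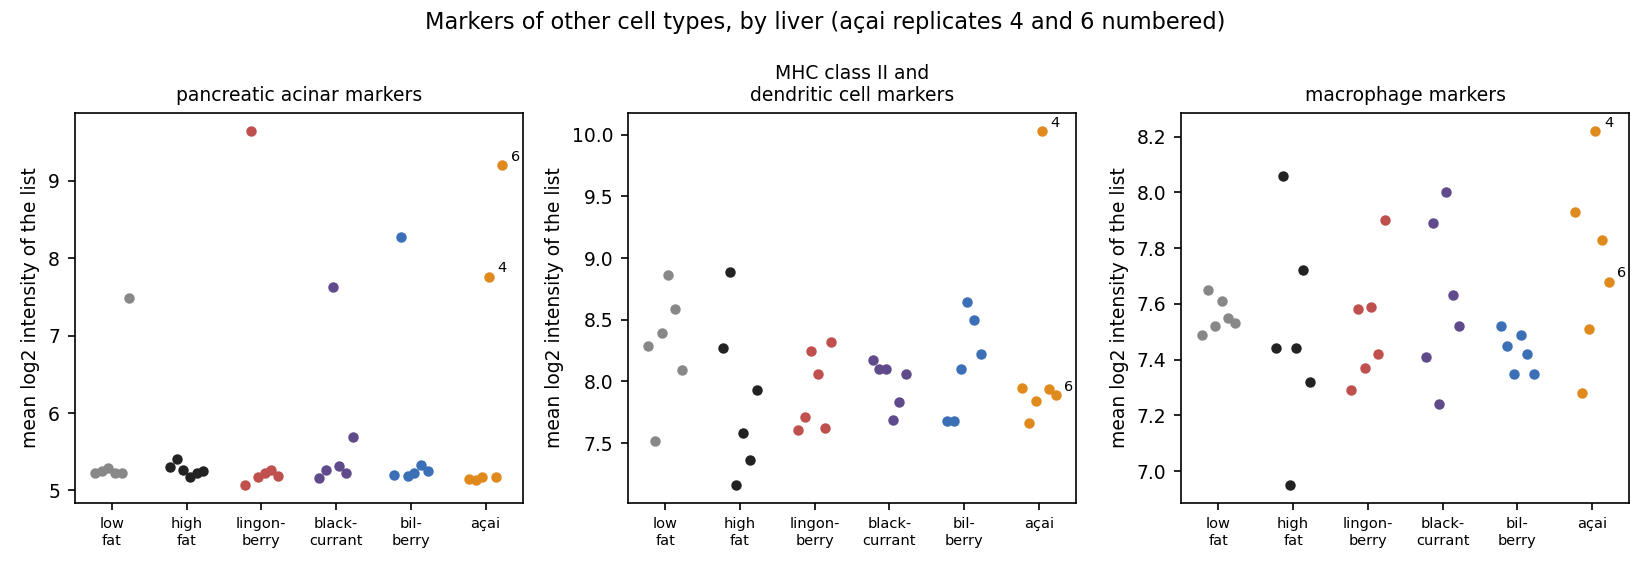
Mean log2 intensity of 3 lists of markers in each liver (1 point a liver, by diet, in chip order within a diet). Açai replicates 4 and 6 are numbered and sit at 7.76 and 9.20 for the pancreatic markers, above all 6 high-fat livers, and replicate 4 is at 10.03 for the MHC class II markers.

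The largest rise was that of Cidea, a protein of the lipid droplet surface that promotes fusion of droplets and is made at low levels in a lean liver. Its level, as normalized log2 intensity, ran from 6.91 through a median of 7.96 to 8.77 in the açai livers, and from 4.23 through 5.29 to 7.02 in the high-fat livers. It was detected in all 6 açai livers and in 4 of 6 high-fat livers. The lowest açai liver lay just below the highest high-fat liver, so the groups touched in 1 pair of values. Cidea was 2.39 ± 0.29 higher (log2 difference ± SE, 5.24-fold, adjusted p = 1.77e-05 by limma). No low-fat liver had a detected level, so the mean of the açai livers was at least 9.13-fold above low fat. Cidea was detected in 1 lingonberry, 0 blackcurrant and 1 bilberry liver, and the highest values on these diets were 5.47, 4.61 and 5.30, all below the lowest açai liver. The rise over high fat was 2.51 without açai replicates 4 and 6 (adjusted p = 0.000178).

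Pparg, which encodes PPARγ, was read by 3 probes. The called probe ran from 5.72 to 6.36 with a median of 5.94 on açai and from 4.45 to 5.46 with a median of 4.98 on high fat, without overlap. The difference was 0.98 ± 0.16 (adjusted p = 0.00237). A brighter Pparg probe gave 0.82 ± 0.19 (adjusted p = 0.0849) and a dimmer one 0.50 ± 0.13 (adjusted p = 0.12), so 1 of the 3 probes passed, and all 3 had the same direction. On the brighter probe too the groups did not overlap, with 7.31 to 7.89 on açai and 6.02 to 7.22 on high fat. With açai replicates 4 and 6 left out the called probe gave 0.95 (adjusted p = 0.0461).

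Cidec, a close relative of Cidea that is a known target of PPARγ, did not pass the adjusted threshold. Its level ran from 7.88 through 8.30 to 9.17 on açai and from 4.33 to 7.67 on high fat. The groups did not overlap, and high-fat replicates 1 and 6 were the low ones at 4.33 and 4.84, while the other high-fat livers lay between 6.94 and 7.67. The difference was 1.99 ± 0.47 (adjusted p = 0.0853). Against the other berries Cidec was higher by 3.13 ± 0.38 (adjusted p = 3.57e-06), and against low fat by 3.67 ± 0.47 (adjusted p = 1.77e-06), where it was detected in 1 of 6 livers, so that this size rests on values near background. Plin4, which coats droplets, differed from high fat by 0.67 ± 0.26 (adjusted p = 0.429), and Fitm1, which helps bud droplets from the endoplasmic reticulum, by 0.58 ± 0.21 (adjusted p = 0.383). Both exceeded the mean of the other berries, Plin4 by 1.93 ± 0.21 (adjusted p = 4.88e-07) and Fitm1 by 0.78 ± 0.17 (adjusted p = 0.00536).

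Over the list of lipid droplet, PPARγ target and lipid uptake genes, 19 of 23 were tested, each through its brightest probe. Of these 1, Cidea, was called, beside 0.123% of all probes. Pparg entered the list through its brighter probe, which did not pass. At an unadjusted p below 0.05, 6 were higher and 0 lower, beside 4.08% and 3.84% of all probes. The median difference was 0.285, against -0.009 over all probes tested, and 15 of 19 differences were above 0, against 47.4% of all probes. Without high-fat replicate 1 the list held 3 genes higher at that unadjusted threshold and a median of 0.164, and without all of chip 1 it held 3 and a median of 0.161. Without açai replicates 4 and 6 the median was 0.164 as well, with 7 genes higher. The ubiquitous droplet proteins Plin2 and Plin3 gave 0.31 ± 0.19 and -0.01 ± 0.10, and the fatty acid transporter Cd36 gave 0.22 ± 0.12.

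**Figure D3:**
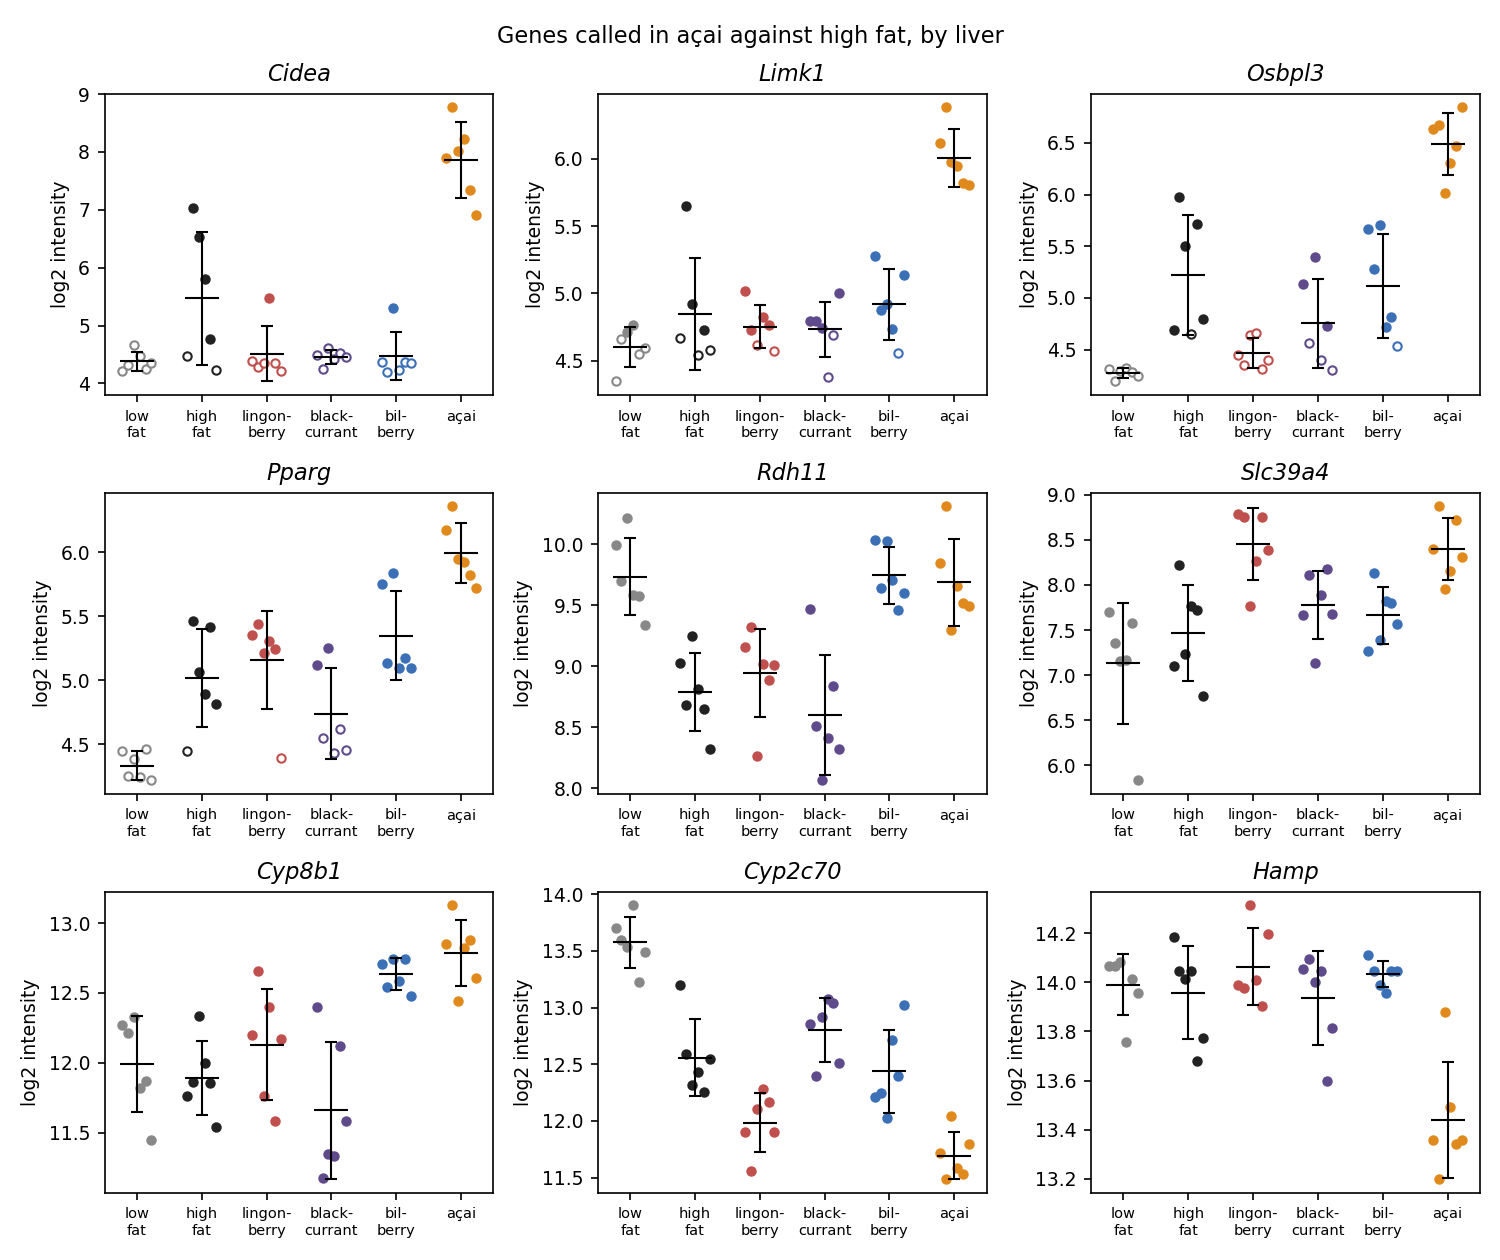
Log2 intensity of 9 genes called in açai against high fat, in each liver of the 6 diets (points in chip order, filled where the probe was detected at p below 0.05, open where not). Black bars are the mean and SD of 6 livers. Cidea, Limk1, Osbpl3 and Pparg stand higher on açai than on any other diet by mean, while Rdh11 and Cyp8b1 are also high on bilberry and Slc39a4 on lingonberry.

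Further genes of lipid handling and membranes rose. Osbpl3, an oxysterol-binding protein that moves lipids at contacts with the endoplasmic reticulum, ran from 6.01 through 6.55 to 6.84 on açai and from 4.65 through 5.15 to 5.97 on high fat. The groups did not overlap, and the difference was 1.27 ± 0.20 (adjusted p = 0.00237). A second Osbpl3 probe gave 0.66 ± 0.17 (adjusted p = 0.127). The Osbpl3 difference was 1.09 without açai replicates 4 and 6 (adjusted p = 0.0734).

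Gal3st1, the sulfotransferase that makes sulfatide, ran from 6.32 through 6.54 to 6.81 on açai and from 4.52 through 5.38 to 6.14 on high fat. The lowest açai liver was above the highest high-fat liver, and the difference was 1.17 ± 0.22 (adjusted p = 0.0196, and 0.0566 without the chip in the fit). Entpd5, a nucleotide phosphatase of the endoplasmic reticulum, differed by 0.52 ± 0.11 (adjusted p = 0.0443, and 0.0574 without the chip), and its other 3 probes gave 0.38 to 0.50 without passing. Entpd5 ran from 10.09 to 10.43 on açai and from 9.38 to 10.00 on high fat, without overlap.

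Limk1, the kinase that phosphorylates cofilin and so slows the turnover of actin filaments, had the smallest p of all probes. Its level ran from 5.80 through 5.96 to 6.38 on açai and from 4.54 through 4.70 to 5.65 on high fat, without overlap. The probe was dim, with detection in all 6 açai livers and in 3 of 6 high-fat livers. High-fat replicate 2 held the highest value of its group. The difference was 1.16 ± 0.13 (2.23-fold, adjusted p = 1.57e-05). Against the other berries the difference was 1.20 ± 0.11 (adjusted p = 1.68e-08), and against low fat 1.40 ± 0.13 (adjusted p = 9e-09). High fat itself differed from low fat by 0.24 (adjusted p = 0.327), a comparison that shares the high-fat arrays.

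Sdcbp2, a PDZ protein of the syntenin family, was dim as well, detected in 4 açai livers and 1 high-fat liver. It ran from 4.45 through 4.99 to 5.72 on açai and from 4.17 through 4.26 to 4.91 on high fat, with overlap, and differed by 0.65 ± 0.14 (adjusted p = 0.0401). Of the other diets only blackcurrant had a detection of Sdcbp2, in 1 liver. The probe thus met the filter of 6 arrays only through its açai livers, and its p is no fair test of açai. Without the filter the adjusted p of Sdcbp2 by limma was 0.0947. A dim probe of Rbm47, an RNA-binding protein, differed by 0.56 ± 0.12 (adjusted p = 0.0325), while the brighter 3 probes of Rbm47 gave 0.03 to 0.24 and did not pass. Gas2l3, which links actin and microtubules, ran from 5.17 to 6.06 on açai and from 4.71 to 5.18 on high fat, touching in 1 pair of values, and differed by 0.58 ± 0.12 (adjusted p = 0.0365). None of these was called without the chip, with adjusted p of 0.0566 for Sdcbp2, 0.0603 for Rbm47 and 0.165 for Gas2l3.

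On the X chromosome, Bhlhb9 and Tceal8 rose. Bhlhb9 ran from 6.54 through 6.89 to 7.46 on açai and from 5.58 through 6.14 to 6.64 on high fat, with a difference of 0.82 ± 0.16 (adjusted p = 0.0207). Tceal8 ran from 8.58 through 8.72 to 9.03 on açai and from 7.07 through 8.05 to 8.53 on high fat, with a difference of 0.79 ± 0.16 (adjusted p = 0.0285). Only Tceal8 had no overlap between the groups. Without the chip in the fit the adjusted p was 0.0574 for Bhlhb9 and 0.115 for Tceal8. Tceal8 was lower than high fat on each of the other berries, by 0.83, 0.92 and 0.68 for lingonberry, blackcurrant and bilberry (adjusted p = 0.00262, 0.0106 and 0.035), and the direct test of açai against all of these livers gave 1.60 ± 0.13 (adjusted p = 1.73e-09).

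Niban2, which sits at adherens junctions, ran from 7.25 through 7.42 to 7.82 on açai and from 6.39 through 6.72 to 7.29 on high fat, with slight overlap, and differed by 0.72 ± 0.14 (adjusted p = 0.0224). Prss8, the membrane protease prostasin, ran from 5.55 through 5.72 to 6.62 on açai and from 4.58 through 5.05 to 5.35 on high fat. Prss8 differed by 0.91 ± 0.20 (adjusted p = 0.0443, and 0.0566 without the chip), without overlap. A slightly brighter Prss8 probe gave 0.72 ± 0.19 (adjusted p = 0.159). On the called probe açai differed from low fat by 0.22 ± 0.20 (adjusted p = 0.56). High fat differed from low fat by -0.69 (adjusted p = 0.0293), a comparison that shares the high-fat arrays by which Prss8 was picked.

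In bile acid metabolism, Cyp8b1 rose and Cyp2c70 fell. Cyp8b1 ran from 12.45 through 12.84 to 13.13 on açai and from 11.54 through 11.86 to 12.34 on high fat, without overlap. It was 0.89 ± 0.18 higher (1.86-fold, adjusted p = 0.0256). Cyp2c70 ran from 11.49 through 11.65 to 12.05 on açai and from 12.26 through 12.49 to 13.20 on high fat, also without overlap. Cyp2c70 was lower, with a log2 difference of -0.86 ± 0.15 (adjusted p = 0.0114).

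Against low fat the Cyp2c70 difference was -1.88 ± 0.15 (adjusted p = 4.76e-10), and that of Cyp8b1 was 0.80 ± 0.18 (adjusted p = 0.00335). High fat without a berry differed from low fat by -1.02 for Cyp2c70 and -0.10 for Cyp8b1 (adjusted p = 7.4e-05 and 0.828 by limma). That comparison shares the high-fat arrays by which both genes were picked. Both genes also differed from the average over the other berries, Cyp8b1 by 0.65 ± 0.15 (adjusted p = 0.00772) and Cyp2c70 by -0.71 ± 0.13 (adjusted p = 0.000644). Against the same high-fat arrays, Cyp8b1 gave 0.74 on bilberry (adjusted p = 0.0435), 0.24 on lingonberry and -0.23 on blackcurrant. Cyp2c70 gave -0.57 on lingonberry (adjusted p = 0.0292), -0.12 on bilberry and 0.24 on blackcurrant. High-fat replicate 1 held the highest Cyp2c70 value on high fat, and without it the Cyp2c70 difference was -0.73 (adjusted p = 0.0739). Without açai replicates 4 and 6 the differences were 0.87 for Cyp8b1 (adjusted p = 0.139) and -0.80 for Cyp2c70 (adjusted p = 0.108).

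Of 25 bile acid genes 22 were tested, with 1 risen and 1 fallen, beside 0.112% and 0.0112% of all probes. At an unadjusted p below 0.05, 3 were higher and 4 lower, beside 4.08% and 3.84% of all probes. The median difference of the list was -0.01. Cyp7a1, the rate-limiting enzyme of the classical pathway, gave 1.25 ± 0.45 (adjusted p = 0.388), with 8.80 to 11.39 on açai and 7.08 to 9.50 on high fat. Against low fat the Cyp7a1 difference was 2.71 (adjusted p = 0.000105). The half-transporters Abcg5 and Abcg8, which send cholesterol into bile, gave -0.35 ± 0.13 and -0.51 ± 0.17 (adjusted p = 0.383 and 0.298), and both were lower on açai on all 6 chips.

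The promoters of Cyp8b1 and Cyp2c70 are shown because these genes moved in opposite directions and hold the same short element. Each line gives 250 bases before the start of the gene, read 5′ to 3′ on the minus strand, from RefSeq with build GRCm38.p6, at chr9:121916306-121916555 for Cyp8b1 and chr19:40187287-40187536 for Cyp2c70. Capitals mark CAAAGTCCA, a core sequence bound by the liver factor HNF4α, and TATAAA or its reverse complement.
Cyp8b1: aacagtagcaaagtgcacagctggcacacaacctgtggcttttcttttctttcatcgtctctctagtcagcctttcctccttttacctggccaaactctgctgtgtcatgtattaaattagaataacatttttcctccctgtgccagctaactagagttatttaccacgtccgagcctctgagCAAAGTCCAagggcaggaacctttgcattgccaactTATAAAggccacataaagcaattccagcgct
Cyp2c70: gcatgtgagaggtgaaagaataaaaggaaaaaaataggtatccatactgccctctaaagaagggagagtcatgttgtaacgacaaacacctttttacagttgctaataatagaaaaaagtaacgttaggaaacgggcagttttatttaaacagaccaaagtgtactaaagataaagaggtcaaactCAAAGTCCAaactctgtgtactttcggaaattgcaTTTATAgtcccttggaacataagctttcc
The HNF4 element began 67 bases before the start in Cyp8b1 and 64 bases before it in Cyp2c70. On either strand it was found in 0.452% of 27018 genes with a promoter in the table, and in 2 of the 15 genes called here that had one. These 2 are Cyp8b1 and Cyp2c70 themselves, and the 27018 genes are not limited to those expressed in liver. The shares are thus no test of enrichment. TATAAA was found in 14.3% of genes and in 3 of those 15. A match of letters is a description and does not show that a factor was bound.

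The cholesterol synthesis genes lay higher on açai as a list, though none passed correction. Of 24 genes 17 were tested and 0 were called by limma, beside 0.123% of all probes. At an unadjusted p below 0.05, 15 were higher and 0 lower, beside 4.08% and 3.84% of all probes. All 17 differences were above 0, and their median was 0.617, against -0.009 for all probes tested. With 1 array or chip left out in turn, between 9 and 16 genes were higher at the unadjusted threshold, the 9 without chip 2, where the median was 0.429. Without açai replicates 4 and 6 it was 14 genes, with a median of 0.735.

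Fdps, which makes farnesyl diphosphate, ran from 11.65 through 11.98 to 12.56 on açai and from 10.88 through 11.03 to 11.62 on high fat. The groups did not overlap, and the difference was 0.94 ± 0.21 (adjusted p = 0.0796). Sqle, the squalene epoxidase and a slow step of the pathway, ran from 8.72 through 9.22 to 10.46 on açai and from 7.04 through 7.92 to 8.98 on high fat, and differed by 1.31 ± 0.32 (adjusted p = 0.11). Nsdhl and Msmo1, which remove methyl groups from sterols, differed by 0.87 ± 0.21 and 0.89 ± 0.23 (adjusted p = 0.114 and 0.12). These 4 genes were higher on açai on all 6 chips. The values are those of the brightest probe: a further dim Fdps probe gave 0.02 ± 0.16, a further Sqle probe 1.16 ± 0.32, and the other 3 Nsdhl probes 0.59 to 0.77.

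The later enzymes Dhcr7, Lss and Cyp51 gave 0.80 ± 0.20, 0.70 ± 0.19 and 0.76 ± 0.23, and Pmvk of the mevalonate pathway gave 0.68 ± 0.18. Srebf2, which encodes SREBP2 itself, gave 0.09 ± 0.14. Insig1, the sterol-sensing partner that holds SREBP2 back, gave 0.26 ± 0.11 on its brightest probe and 0.72 ± 0.16 and 0.44 ± 0.16 on the others (adjusted p = 0.525, 0.0505 and 0.373). Against low fat the same 17 genes had a median difference of 0.275 and 1 was called, beside 10.2% of all probes. That gene was Msmo1, at 1.05 ± 0.23 (adjusted p = 0.0022). On bilberry the differences from the same high-fat arrays were 0.97 for Fdps, 1.35 for Sqle, 1.28 for Nsdhl and 1.17 for Msmo1, with adjusted p of 0.0224, 0.0352, 0.00477 and 0.00884.

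**Figure D4:**
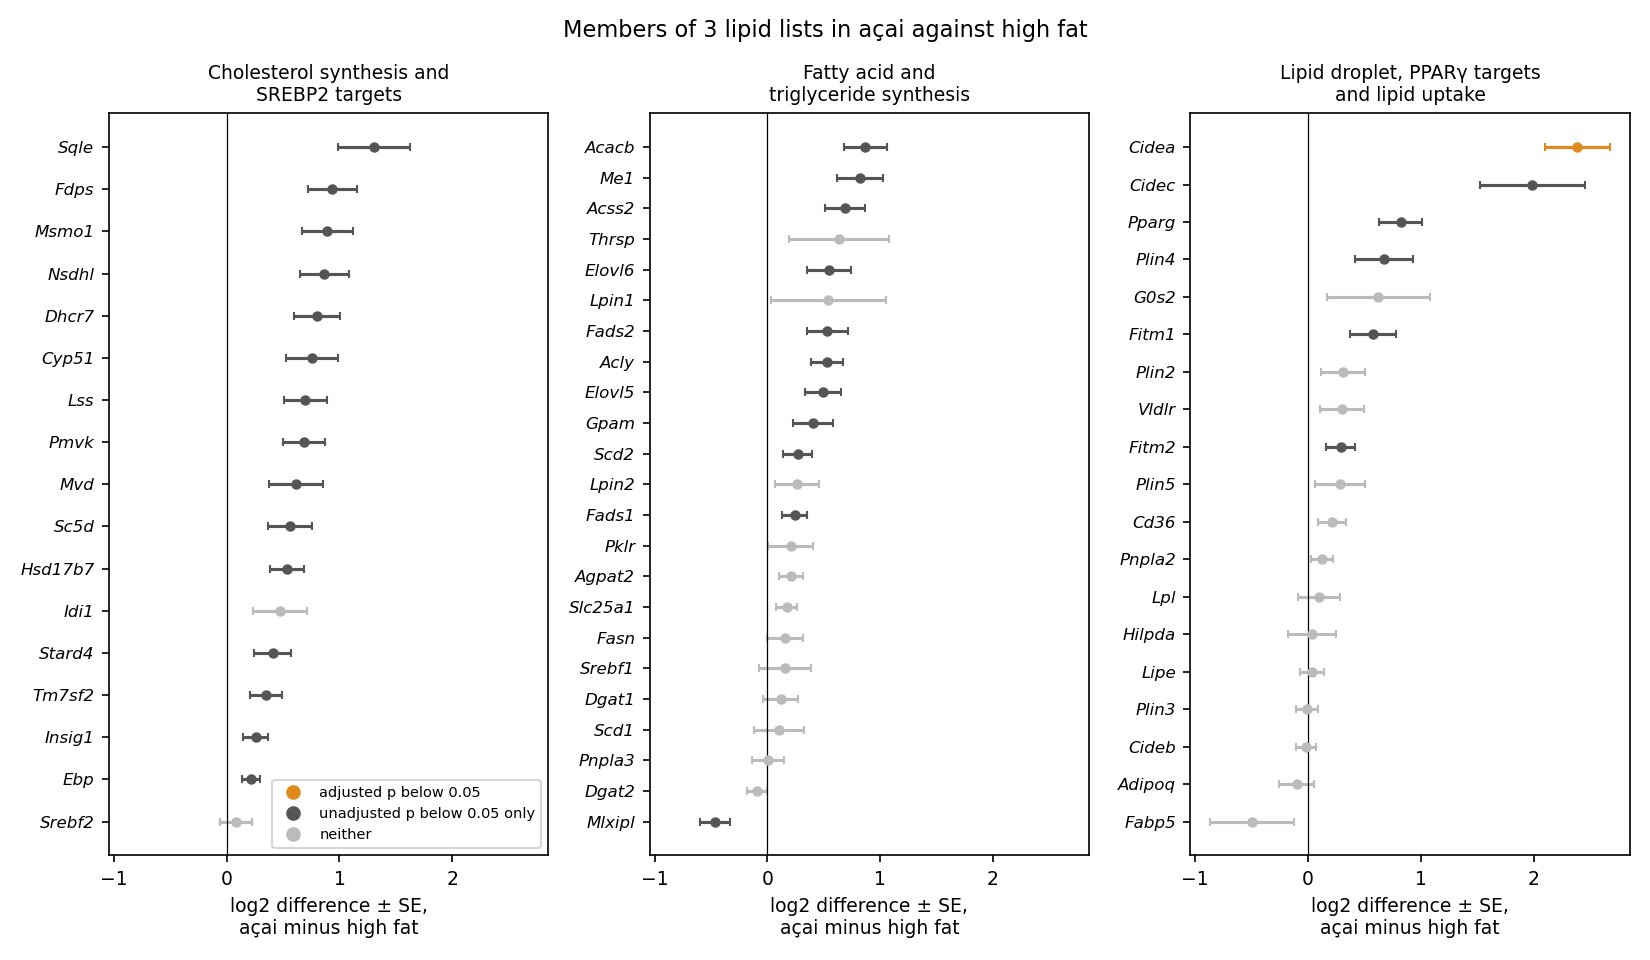
Log2 difference of açai minus high fat with its SE for each tested gene of 3 lists, read by its brightest probe and sorted by size. All 17 genes of cholesterol synthesis and 21 of 23 of fatty acid and triglyceride synthesis lie above 0, but Cidea alone among all those shown passed the adjusted threshold (orange).

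The promoters of Msmo1 and Nsdhl are shown because all cholesterol synthesis genes with an entry in the RefSeq table held the CCAAT box, the element of the factor NF-Y. The box, CCAAT on either strand, was found in 14 of 14 such genes, against 37.5% of 27018 genes. Capitals mark it in the 250 bases before each start, at chr8:64733579-64733828 on the minus strand for Msmo1 and chrX:72918271-72918520 on the plus strand for Nsdhl (RefSeq, GRCm38.p6).
Msmo1: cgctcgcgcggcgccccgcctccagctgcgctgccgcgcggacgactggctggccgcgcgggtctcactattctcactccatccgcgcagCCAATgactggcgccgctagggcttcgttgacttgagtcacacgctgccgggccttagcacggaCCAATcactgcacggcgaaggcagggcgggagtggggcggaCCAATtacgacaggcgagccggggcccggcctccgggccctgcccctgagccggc
Nsdhl: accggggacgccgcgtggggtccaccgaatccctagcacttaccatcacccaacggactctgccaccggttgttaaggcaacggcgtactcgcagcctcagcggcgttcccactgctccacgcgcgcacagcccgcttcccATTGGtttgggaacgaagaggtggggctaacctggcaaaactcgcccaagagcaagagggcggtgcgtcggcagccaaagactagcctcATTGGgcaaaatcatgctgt
Msmo1 held 3 copies and Nsdhl 2, the latter both on the opposite strand. The sterol regulatory element in the form TCACNCCAC was found in 0 of the 14 genes and in 1.23% of all genes. These exact letters are a narrow reading of that element, and their absence from a window says nothing about SREBP2.

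For fatty acid and triglyceride synthesis no gene passed the adjusted threshold either. Of 25 genes 23 were tested and 0 were called, beside 0.123% of all probes. At an unadjusted p below 0.05, 10 were higher and 1 lower, beside 4.08% and 3.84% of all probes, and the median difference was 0.263. Acacb, the mitochondrial acetyl-CoA carboxylase, ran from 7.85 through 8.15 to 8.72 on açai and from 6.75 through 7.29 to 7.99 on high fat. With overlap in the ranges, the difference was 0.87 ± 0.19 (adjusted p = 0.0505). Me1, which supplies NADPH, gave 0.82 ± 0.20, and high-fat replicate 1 held the lowest value of its group. Acss2 and Acly, both sources of cytosolic acetyl-CoA, gave 0.69 ± 0.18 and 0.53 ± 0.15.

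The lower member of that list was Mlxipl, the carbohydrate-sensing factor ChREBP, at -0.46 ± 0.13 (adjusted p = 0.205). Fasn, Scd1 and Srebf1, which are classical SREBP1c readouts, gave 0.16 ± 0.16, 0.10 ± 0.22 and 0.16 ± 0.23. Without chip 1 the list held 6 genes higher at the unadjusted threshold, and its median was 0.181. High fat differed from low fat by -1.72 for Acacb and -1.38 for Acss2 (adjusted p = 4.77e-07 and 5.59e-06), a comparison that shares the high-fat arrays. Açai differed from low fat by -0.85 ± 0.19 and -0.69 ± 0.18 for the same genes (adjusted p = 0.00298 and 0.00962). Acacb exceeded its average on the other berries by 1.25 ± 0.15 (adjusted p = 3.77e-06).

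Hamp, which encodes hepcidin, the hormone that closes the iron exporter ferroportin, fell. It ran from 13.20 through 13.36 to 13.88 on açai and from 13.68 through 14.03 to 14.19 on high fat. Açai replicate 3, at 13.88, lay among the high-fat livers and the others were below them. The difference was -0.52 ± 0.09 (adjusted p = 0.0114), and it was -0.57 ± 0.08 against the other berries (adjusted p = 1.31e-05) and -0.55 ± 0.09 against low fat (adjusted p = 0.000146). Hamp has a near-identical copy, Hamp2, whose probe gave -0.45 ± 0.39, and array probes may not separate the copies. The Hamp difference was -0.53 without açai replicates 4 and 6 (adjusted p = 0.0734).

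Slc39a4, the zinc importer ZIP4, rose. Its level ran from 7.95 through 8.36 to 8.87 on açai and from 6.77 through 7.48 to 8.23 on high fat, with overlap. The difference was 0.93 ± 0.18 (adjusted p = 0.0207, and 0.183 without the chip). A dimmer Slc39a4 probe gave 0.62 ± 0.16 (adjusted p = 0.138). Lingonberry differed from the same high-fat arrays by 0.98 (adjusted p = 0.00189), and açai against the other berries pooled gave 0.44 ± 0.15 (adjusted p = 0.0882). Of the 18 tested of 20 genes of iron and metal handling, Slc39a4 rose, Hamp fell and the median difference was 0.047. Over all probes 0.112% were called higher and 0.0112% lower. The list held 2 genes higher and 2 lower at an unadjusted p below 0.05, beside 4.08% and 3.84% of all probes. Tfrc, the transferrin receptor, gave 0.45 ± 0.19, Id1, a target of the same BMP signal as hepcidin, gave -0.56 ± 0.19, and the exporter Slc40a1 gave 0.02 ± 0.13.

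Rdh11, a retinol dehydrogenase that reduces retinal, rose on both of its probes. The brighter probe ran from 9.30 through 9.59 to 10.31 on açai and from 8.33 through 8.75 to 9.25 on high fat, and the dimmer from 7.18 through 7.39 to 8.22 and from 6.39 through 6.59 to 7.01. Neither probe overlapped between the diets. The differences were 0.90 ± 0.17 and 0.86 ± 0.15 (adjusted p = 0.0207 and 0.0114), and both probes had an adjusted p of 0.0566 without the chip. With açai replicates 4 and 6 left out the brighter probe gave 0.88 (adjusted p = 0.122). Rdh11 was 0.94 lower on high fat than on low fat (adjusted p = 0.00093), a comparison that shares the high-fat arrays by which Rdh11 was picked. Açai and low fat differed by -0.05 ± 0.17 (adjusted p = 0.912). Bilberry gave 0.95 against the same high-fat arrays (adjusted p = 0.00788). Of 22 retinoid genes tested 1 was called, beside 0.123% of all probes, and the median was 0.077. Of these genes 4 were higher and 1 lower at an unadjusted p below 0.05, beside 4.08% and 3.84% of all probes. Aldh1a7 gave 0.40 ± 0.11 and Rdh10 0.35 ± 0.14, neither passing.

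Cyp4a12a, the male-biased fatty acid ω-hydroxylase, rose. It ran from 11.52 through 11.60 to 12.38 on açai and from 9.76 through 10.97 to 11.30 on high fat, without overlap, and differed by 1.10 ± 0.23 (adjusted p = 0.0421, and 0.0566 without the chip). Its near-identical neighbour Cyp4a12b gave 0.44 ± 0.26, and the probes may share signal. The other berries gave 0.74 to 0.83 against the same high-fat arrays without passing, and açai differed from their mean by 0.31 ± 0.19 (adjusted p = 0.411). Among 25 tested male-biased genes 1, Cyp4a12a, was called, beside 0.123% of all probes, and the list had a median difference of -0.025. It held 1 gene higher and 1 lower at an unadjusted p below 0.05, beside 4.08% and 3.84% of all probes. Hsd3b5, a male-biased steroid reductase, gave -0.92 ± 0.24 against high fat (adjusted p = 0.146), -1.61 ± 0.20 against the other berries (adjusted p = 3.57e-06) and -1.85 ± 0.24 against low fat (adjusted p = 3.25e-06).

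Most lower genes did not reach the adjusted threshold. After Cyp2c70 and Hamp, the smallest p among lower genes was that of Ang, the secreted ribonuclease angiogenin. Ang ran from 11.50 through 11.75 to 12.01 on açai and from 12.03 through 12.24 to 13.06 on high fat, without overlap, with a difference of -0.60 ± 0.14 (adjusted p = 0.0853). A dim Etfdh probe was not well above background in any açai liver, and high fat was at least 1.06-fold above it (adjusted p = 0.114), while the brighter 2 Etfdh probes gave 0.17 and 0.21. Heat shock genes had 4 of 14 tested members lower at an unadjusted p below 0.05, beside 3.84% of all probes, and the chaperone partners Dnajb1 and Bag3 gave -0.51 ± 0.13 and -0.44 ± 0.13 (adjusted p = 0.136 and 0.205). Dnajb1 was not particular to açai: lingonberry, blackcurrant and bilberry gave -0.44, -0.50 and -0.45 against the same high-fat arrays, none passing. Açai differed from the mean of these berries by -0.05 ± 0.11, and high fat from low fat by 0.49, for Dnajb1. The heat shock list had a median of -0.002, and 0 of it was called, beside 0.123% of all probes.

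Immune markers did not pass the adjusted threshold. Of 22 macrophage markers 18 were tested, all with a difference above 0 and a median of 0.238, with 3 higher at an unadjusted p below 0.05 and 0 called. Over all probes 47.4% were above 0 and 4.08% were higher at that threshold. Their mean per liver ran from 7.28 to 8.22 on açai and from 6.95 to 8.06 on high fat. Adgre1, the gene of F4/80, gave 0.42 ± 0.17, and Csf1r, a growth factor receptor of macrophages, gave 0.37 ± 0.15. Without açai replicates 4 and 6 the median was 0.14, with 16 of 18 above 0 and 1 higher at the unadjusted threshold. That number was 0 without açai replicate 1 or chip 1, 1 without açai replicate 4, high-fat replicate 3, high-fat replicate 4 or chip 4, 8 without açai replicate 2 or high-fat replicate 2, and 12 without chip 2. Fatty acid oxidation and PPARα targets had 25 tested, 0 called and a median of 0.126, with 3 higher and 0 lower at an unadjusted p below 0.05. Glutathione and NRF2 genes had 22 tested, 0 called and a median of 0.215, with 5 higher and 0 lower at that threshold. Of them Gsta2 gave 0.92 ± 0.30 and Gstm4 0.47 ± 0.16. Cytosolic ribosomal protein genes had 33 tested, 0 called and a median of -0.071, with 2 above 0. At the unadjusted threshold 0 of them were higher and 4 lower. Over all probes 0.123% were called, and 47.4% were above 0. The shares of all probes higher and lower at the unadjusted threshold were 4.08% and 3.84%.

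No gene of glucose production and insulin response passed the adjusted threshold. G6pc, the last enzyme of glucose output, ran from 10.03 through 10.77 to 11.06 on açai and from 9.14 through 9.96 to 10.40 on high fat. The ranges overlapped, and the difference was 0.83 ± 0.22 (adjusted p = 0.146). Lingonberry and bilberry gave 1.47 and 1.16 against the same high-fat arrays (adjusted p = 0.000164 and 0.00857). Igfbp1, which insulin represses, gave 0.78 ± 0.29, and Irs1, an insulin receptor substrate, gave -0.42 ± 0.13 (adjusted p = 0.421 and 0.254). Of the 18 genes tested 0 were called, beside 0.123% of all probes. At an unadjusted p below 0.05, 2 were higher and 2 lower, beside 4.08% and 3.84% of all probes, and the median was 0.083.

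Açai was also set against the 18 livers of the other 3 berries, taken as the average of the 3 diet means. In this contrast, which has more arrays than the one against high fat and uses no high-fat array, 756 probes were called, 4.22% of those tested. Of these 467 were higher (2.61%) and 289 lower (1.61%) on açai. Without açai replicates 4 and 6 the count was 362, and without the chip it was 457. Besides Cidea and Cidec, the largest rises were Cyp2b9 at 2.97 ± 0.34 (adjusted p = 1.48e-06), Lcn2 at 2.42 ± 0.56 (adjusted p = 0.00996), Cyp2b10 at 2.28 ± 0.47 (adjusted p = 0.00354) and Plin4. Cyp2b10 is a cytochrome induced through the receptor CAR, Cyp2b9 is a cytochrome of the same family, and Lcn2 is an acute-phase protein. Between açai and high fat Cyp2b10 gave 1.07 (adjusted p = 0.681 by limma).

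The level of Cyp2b9 ran from 7.35 through 8.11 to 8.70 on açai and from 5.97 through 8.14 to 10.11 on high fat, with medians of 4.90, 4.75 and 5.04 on lingonberry, blackcurrant and bilberry. All açai livers lay within the high-fat range, and their difference was -0.01 ± 0.42 (adjusted p = 0.997), with a 95% interval from -0.86 to 0.84. The other berries differed from high fat by -2.98, -3.03 and -2.94 (adjusted p = 9.15e-05, 0.000648 and 0.000881). No low-fat liver detected the probe, so the açai mean was at least 10.4-fold above low fat. Lcn2 gave 0.21 ± 0.69 between açai and high fat (adjusted p = 0.969). Its pooled difference did not hold for each berry: lingonberry and bilberry differed from high fat by -3.46 and -3.12 (adjusted p = 0.0037 and 0.0224), but blackcurrant by -0.03 (adjusted p = 0.99), with 6.00 to 12.75 over its livers.

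The largest falls against the other berries were Avpr1a at -1.69 ± 0.21 (adjusted p = 5.34e-06), Osgin1 at -1.67 ± 0.33 (adjusted p = 0.00213), Hsd3b5, Enho at -1.60 ± 0.21 (adjusted p = 1.2e-05), Foxq1 at -1.22 ± 0.34 (adjusted p = 0.0317) and Id2 at -1.14 ± 0.25 (adjusted p = 0.0069). Avpr1a is the vasopressin receptor of hepatocytes, and Enho encodes the hepatokine adropin. Foxq1 was not lower than on lingonberry, where its median was 6.65 against 6.63 on açai, 7.99 on blackcurrant and 8.60 on bilberry. Against high fat the differences were -0.92 ± 0.26 for Avpr1a (adjusted p = 0.194) and -0.84 ± 0.26 for Enho (adjusted p = 0.257). Osgin1, Foxq1 and Id2 gave -0.67, -0.80 and -0.64 against high fat (adjusted p = 0.7385, 0.661 and 0.626 by limma). Avpr1a ran from 6.83 to 8.05 on açai, from 7.53 to 9.27 on high fat and from 8.44 to 9.89 on blackcurrant.

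**Figure D5:**
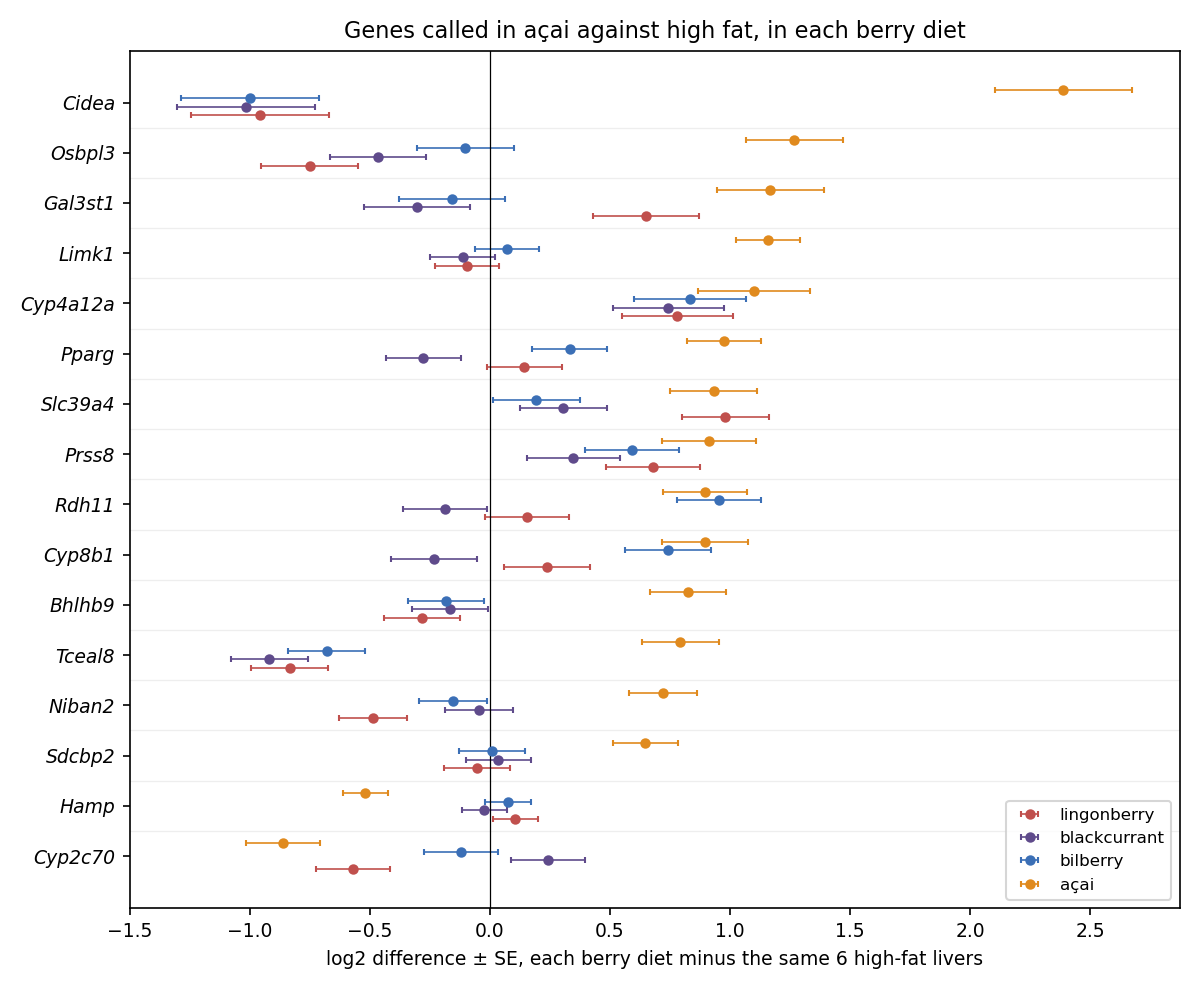
Log2 difference with its SE of each berry diet minus the same 6 high-fat livers, for 16 of the 19 genes called in açai against high fat, the 14 largest rises and both falls. Cidea lies at 2.39 on açai and between -0.96 and -1.02 on the other berries, while Rdh11 and Cyp8b1 lie at 0.90 and 0.89 on açai and at 0.95 and 0.74 on bilberry.

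Against the low-fat livers, with no high-fat array in the contrast, açai differed at 1820 probes, which is 10.2% of those tested, 956 higher (5.34%) and 864 lower (4.82%), and 3.1% of probes did not overlap between the 2 groups. High fat without a berry differed from the same low-fat arrays at 5.86% of probes, 3.32% higher and 2.54% lower. The other berries each differed from the same high-fat arrays, lingonberry at 4% of probes (1.93% higher, 2.08% lower), blackcurrant at 0.19% (0.067% and 0.123%) and bilberry at 0.609% (0.29% and 0.318%). The lipid droplet list had 8 of 19 members called higher against low fat and 2 lower, with a median difference of 0.219. High fat without a berry had 5 of the same 19 called higher than low fat and 2 lower, with a median of 0.184. The brighter Pparg probe was 2.47 ± 0.19 above low fat (adjusted p = 1.38e-10), with 4.57 to 5.42 on low fat and 7.31 to 7.89 on açai. Plin4 was 2.50 ± 0.26 above low fat (adjusted p = 3.57e-08), and Fitm1 1.93 ± 0.21 above it (adjusted p = 7.67e-08). The differences of açai from high fat were smaller for these probes of Pparg, Plin4 and Fitm1, at 0.82, 0.67 and 0.58. None of them passed the adjusted threshold.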

How the data were processed

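Total RNA from 36 livers was hybridised to MouseWG-6 v2.0 bead arrays. The deposited table holds raw probe intensity and a detection p-value per array, and the authors' processed log2 values were deposited per sample with scale unstated. They differed from the values computed here by at most 0.0501 (log2). Intensities of 45281 probes were background-corrected and quantile-normalized with neqc (offset 16) in limma 3.58.1 under R 4.3.3, which inferred the background from the detection p-values. A further 974 control entries without detection p were left out. The sources used here do not state the scanner software. Probes were kept at a detection p below 0.05 on 6 or more arrays. A model with a mean per diet and the chip as a fixed block was fitted to all 36 arrays (lmFit, eBayes, two-sided). P-values were adjusted over 17907 probes by Benjamini-Hochberg. A difference ± SE is the log2 contrast of that model with 6 mice per diet. A lower bound on a fold compares the means of 2 groups, with the dim group at no less than the lowest signal among detected probes.

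Chips pair the samples because array titles name them: deviations from the diet means had a median correlation of 0.107 on the same chip and -0.029 on different chips. Of the 6 açai and high-fat pairs 2 exceeded 0.1, with a range from -0.019 to 0.4. Of the tested probes 15409 carry 1 symbol, by the platform annotation, 2492 are unlisted and 6 have several.

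Named genes were up to 14 per direction by size among called probes with the same sign on at least 5 chips, filled by smallest p, then 6 per direction against the other berries and up to 4 per list. Further members are named for their place in a pathway after their values were seen. The members and all 48 gene lists were chosen with earlier results of these data known. A gene in a list counts through its tested probe with the highest mean over all arrays. Levels of different probes are not comparable. Precision is limited by the number of arrays. Figures used Python 3.11.15 and matplotlib 3.10.9. The fit was tested on simulated data. Alternatives covered normalization, filtering, the chip, array weights and leaving out arrays.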

Additional observations from a re-analysis of the deposited data

Results flagged for a closer look

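Of 216 groups of 6 values examined, 17 held a liver far from the other 5 by Dixon's criterion, and chance gives about 1 in 20 groups. On açai, replicate 4 stood high for Cd74 at 11.29, H2-Aa at 11.36, H2-Ab1 at 11.15 and H2-DMa at 8.46, and for the mean of the MHC class II markers at 10.03. Replicate 2 was low for F7 at 7.04, and replicate 3 was low for G6pc at 10.03 and for Irs1 at 4.66. On high fat, replicate 1 was high for Cyp2c70 at 13.2 and for C8b at 11.14, and low for Me1 at 8.02 and Acaa1b at 13.36. Replicate 2 was high for Limk1 at 5.65, Sdcbp2 at 4.91 and Rdh10 at 4.99, and for the mean of the stellate cell and matrix markers at 6.98. Replicate 4 was low for Mtrf1l at 6.7. All values are log2 intensities, and the cause was not tested.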

How the results depend on the processing

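With 22 probes called in açai against high fat, the chip as a random replicate block gave 34 and no replicate block gave 8, the arrays of the 2 diets alone 2, all probes without the detection filter 9, and leaving out açai replicates 4 and 6 gave 6 and all 6 arrays with high pancreatic markers 10, both chosen after seeing the data. Leaving out 1 array or chip in turn gave 2 to 52. Other background corrections, the authors' values, array weights, a trended robust variance, a stricter filter and the pancreatic covariate gave 19 to 31. Against the other berries (756), no replicate block gave 457, without açai replicates 4 and 6 it was 362, the 6 arrays left out 183, and 1 array or chip left out 346 to 804. Against low fat (1820), these gave 1158, 1172, 1176 and 1104 to 1781. Of the named genes, 5 with small differences changed sign: Cyp2b9 gave 0.0135 with array weights and -0.4217 to 0.4942 with 1 array or chip left out, where Lcn2 gave -0.1655 to 0.6332, Cd74 -0.0504 to 0.6445, H2-Aa -0.0601 to 0.6394 and H2-Ab1 -0.0711 to 0.7066, the lowest of the last 3 without chip 4. The cause was not tested. Dim probes, such as the 10 called ones with a mean below 6, are limited by background.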
